A study of Mus musculus with 6 samples.

Results

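The genes described here encode 8 secreted proteins that act on blood and lymphatic vessels: the vascular endothelial growth factors Vegfa, Vegfb, Vegfc and Pgf, the angiopoietins Angpt1 and Angpt2, and the angiopoietin-like proteins Angptl2 and Angptl4. They were chosen by name from the 24346 genes of the deposited tables, and all 8 were found. RNA-seq had been done on stromal cells sorted from the whole colon of 6 mice aged 12 weeks that had all received 1% DSS (dextran sulfate sodium), which injures the colonic epithelium, so no untreated mouse served as a baseline. The Pdgfra-cre group held 3 Il10ra flox/flox mice that also carried a cre recombinase under control of Pdgfra, a gene of fibroblasts and related mesenchymal cells (libraries 13, 23 and 25). The control group held 3 Il10ra flox/flox mice without cre, whose titles call them WT (libraries 8, 9 and 43). The sort kept live Podoplanin-positive cells that lacked CD45, CD31 and EpCAM, the surface markers of leukocytes, endothelial cells and epithelial cells. Il10ra codes for the receptor chain to which interleukin-10 binds, and the comparison asked what its deletion in Pdgfra-expressing cells altered in the colonic stroma.

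VEGFA, VEGFB and PlGF (the product of Pgf) are dimers that bind the endothelial receptors VEGFR1 and, for VEGFA, VEGFR2, while VEGFC acts mainly on VEGFR3 of lymphatic endothelium. Angiopoietin-1 activates the receptor TIE2 and stabilizes vessels, and angiopoietin-2 can oppose it. The angiopoietin-like proteins share the fold of the angiopoietins but do not bind TIE2. ANGPTL4 inhibits lipoprotein lipase. Fibroblasts and other mural or interstitial cells are a known source of these factors in the gut wall, where vessels themselves respond to them.

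The tables gave FPKM, fragments per kilobase of transcript, scaled to the mapped fragments of the library, a unit that corrects for transcript length and so allows levels of different genes to be compared. Low values fell in steps that put 1 fragment per kilobase at 0.112 to 0.127 FPKM. If values were not rescaled between libraries, that is roughly 7850000 to 8940000 mapped fragments per library. Il10ra was listed at 0 in all 3 Pdgfra-cre libraries and in control libraries 8 and 9, and it had 0.418 FPKM in control library 43, so these values did not show the deletion. Pdpn, which encodes Podoplanin, had 87.3 to 123 FPKM in Pdgfra-cre and 78.3 to 102 FPKM in control libraries, while the CD45 gene Ptprc reached at most 1.04 FPKM, the CD31 gene Pecam1 at most 0.856 FPKM and Epcam at most 1.11 FPKM in any library. Pdgfra itself had 155, 121 and 174 FPKM in Pdgfra-cre libraries 13, 23 and 25. In control libraries 8, 9 and 43 it had 178, 186 and 200 FPKM, so it was lower in Pdgfra-cre without overlap. Of 10 fibroblast markers, Dcn, Dpt and Mfap5 were higher in Pdgfra-cre without overlap, and only Pdgfra was lower. Among the 11429 genes with at least 1 FPKM in at least 3 libraries, 8.07% were higher and 8.29% lower without overlap. Pdgfra-cre library 23 stood apart. Its log2 values correlated least with those of the others (a mean of 0.95, where the other 5 had 0.960 to 0.971), and the summed FPKM of 9 neutrophil markers was 180 in it, against 18.2 and 11.1 in the other Pdgfra-cre libraries and 1.36 to 11.4 in controls. Most of that sum in library 23 came from S100a8 (94.7 FPKM), S100a9 (63.85) and Retnlg (17.3). Of the other markers in that library, Cxcr2 had 2.55 FPKM, Mmp8 0.690 and Csf3r 0.669, and Ngp, Camp and Ltf were listed at 0. The summed FPKM of 6 mesothelial markers was 28.0, 78.2 and 14.2 in Pdgfra-cre libraries 13, 23 and 25, against 3.10, 12.9 and 4.90 in control libraries 8, 9 and 43, so these groups did not overlap with or without library 23. That of 11 epithelial markers was 22.4, 43.9 and 8.25 in Pdgfra-cre libraries, against 1.48, 16.2 and 2.60 in control libraries. These 2 sums are not separate, since Krt19 counts in both (15.4 FPKM in library 23). Only 3 of the 11, the keratin genes Krt8, Krt18 and Krt19, had at least 1 FPKM in at least 3 libraries. Of the 5 mesothelial markers at that level, 2 were higher in Pdgfra-cre without overlap (Msln and Upk3b), against 8.07% of the 11429 genes at that level. Wt1, Krt19 and Upk1b overlapped between the groups.

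The 8 genes spanned a wide range of levels in these cells. Averaged over the 6 libraries, Angptl2 had 131 ± 30.0 FPKM and Angptl4 79.7 ± 27.3, followed by Vegfa at 22.3 ± 5.28, Pgf at 20.9 ± 4.57, Vegfc at 12.5 ± 2.77, Vegfb at 8.74 ± 1.31 and Angpt1 at 4.48 ± 1.86 (SD, n = 6), while Angpt2 was between 0 and 0.913 FPKM. Among the 11429 genes with at least 1 FPKM in at least 3 libraries, Angptl2 lay between percentiles 89.9 and 95.1 of each library, and Vegfa between percentiles 62.0 and 76.2. Of neighbours in this order, Angptl4 and Vegfa, Vegfb and Angpt1, and Angpt1 and Angpt2 had ranges that did not overlap. The ranges of the other neighbours overlapped. Vegfa and Pgf in particular changed places between libraries, with a Vegfa to Pgf ratio of 1.20, 2.0 and 0.776 in the Pdgfra-cre libraries and 0.559, 1.19 and 1.18 in the control libraries. Angptl2 exceeded Angptl4 in 5 of 6 libraries, and the exception was Pdgfra-cre library 13.

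**Figure D1:**
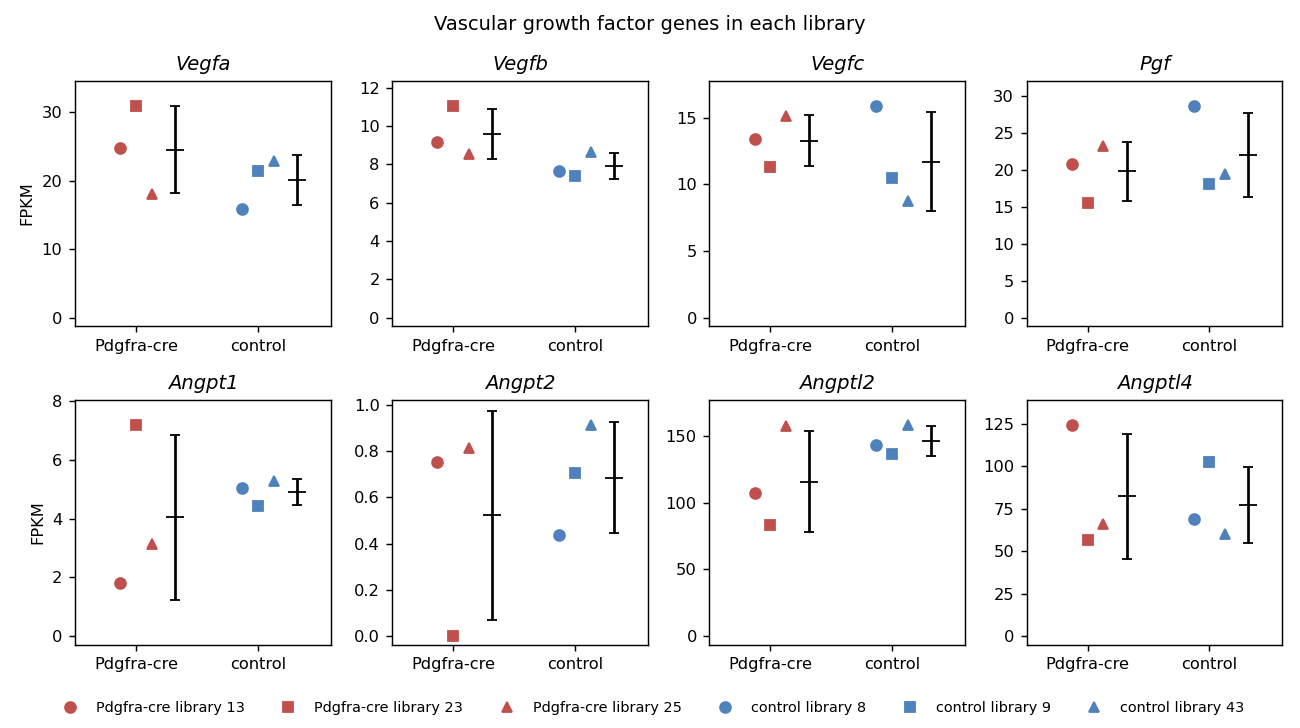
FPKM of each of the 8 genes (vertical axes, each with its own linear scale) in the 3 Pdgfra-cre libraries (left, red) and the 3 control libraries (right, blue), with 1 mark per library and black bars for the group mean ± SD (n = 3). The groups overlap in every panel. Angpt1 spreads from 1.79 to 7.20 FPKM among the Pdgfra-cre libraries, and Angpt2 is listed at 0 in library 23.

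Between genotypes, 0 of the 7 genes tested passed, and the Pdgfra-cre and control ranges overlapped for all 8. The test was limma on log2(FPKM + 1) with Benjamini-Hochberg adjustment over all 11429 genes tested, at a threshold of 0.05. It included 7 of the 8 genes, since Angpt2 was too low. Over all genes tested, 0% passed, 11.0% had an unadjusted p under 0.05 and 16.4% had groups that did not overlap (8.07% higher and 8.29% lower in Pdgfra-cre). At an unadjusted p under 0.05 the count was likewise 0 of the 7 genes. The 95% intervals below show which sizes of difference these 3 against 3 libraries still allow. In a bulk sample fewer cells of a type and less RNA per cell cannot be told apart.

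Vegfa, which drives the sprouting of blood vessels, had 24.8, 30.9 and 18.05 FPKM in Pdgfra-cre libraries 13, 23 and 25, against 15.9, 21.5 and 22.9 FPKM in control libraries 8, 9 and 43. The highest value was in Pdgfra-cre library 23 and the lowest in control library 8, and the other 4 libraries interleaved. The log2 fold change was 0.26 ± 0.22 (SE; 95% interval -0.23 to 0.74; limma adjusted p = 0.738). Without Pdgfra-cre library 23, where the neutrophil and mesothelial marker sums were highest, the log2 fold change was 0.08 (limma adjusted p = 0.95). It was 0.11 when control library 8 was left out (limma adjusted p = 0.942) and 0.46 for Pdgfra-cre library 25 (0.414). The part of those cells in the Vegfa value was not tested. Vegfa has 8 transcripts in the basic GENCODE M21 set, from which its known isoforms arise, and a gene-level value sums them.

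Vegfb, a ligand of VEGFR1 linked to fatty acid handling and vessel survival, was the least variable of the 7 genes tested. It had 9.17, 11.03 and 8.55 FPKM in Pdgfra-cre libraries, against 7.65, 7.37 and 8.66 FPKM in control libraries. A single crossing kept the groups from separating, with control library 43 just above Pdgfra-cre library 25. Between genotypes Vegfb had a log2 fold change of 0.25 ± 0.18 (SE; 95% interval -0.16 to 0.65; limma adjusted p = 0.686), and the residual SD was at the 18.5th percentile of all genes tested. The fold change was 0.15 when Pdgfra-cre library 23 was left out (limma adjusted p = 0.890). By the steps of the low values, about 67 to 126 fragments lay behind each Vegfb value.

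The bases just upstream of these 2 genes were read from the RefSeq promoter table (GRCm38.p6) for letters of regulators that the study's subject and the VEGF field point to. For hypoxia-inducible factor the letters were ACGTG and GCGTG, for the interferon-stimulated response element TTTC, 2 bases of any kind and TTTC again, and for a STAT dimer TTCNNNGAA, each on both strands. The table held 7 starts for 5 of the 8 genes (Vegfa, Vegfb, Vegfc, Pgf and Angptl2). Of the windows of 250 bases that lay outside the annotated gene, those of Vegfa and Vegfb held a match, and both are printed 5′ to 3′ on the minus strand, with the matched letters in capitals.
Vegfa, chr17:46032378-46032627: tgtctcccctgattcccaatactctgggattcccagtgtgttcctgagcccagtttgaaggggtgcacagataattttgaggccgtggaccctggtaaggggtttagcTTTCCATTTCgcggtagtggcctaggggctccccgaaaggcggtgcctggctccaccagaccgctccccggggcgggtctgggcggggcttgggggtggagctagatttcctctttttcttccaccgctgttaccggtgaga
Vegfb, chr19:6987652-6987901: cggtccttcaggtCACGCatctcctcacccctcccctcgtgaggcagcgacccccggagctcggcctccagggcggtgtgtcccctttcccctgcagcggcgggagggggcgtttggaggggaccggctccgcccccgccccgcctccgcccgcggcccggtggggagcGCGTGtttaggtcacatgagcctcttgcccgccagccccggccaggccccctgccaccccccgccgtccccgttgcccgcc

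In the Vegfa window the capitals are 1 match to the interferon letters, 142 to 133 bases before the start. Such a match was present in 2.98% of all 32851 promoter windows of this length. In the Vegfb window the capitals are 2 matches to GCGTG, 1 on each strand (CACGC is its reverse complement), 237 to 233 and 81 to 77 bases before the start. GCGTG was present in 28.2% of windows, ACGTG in 16.6% and the STAT letters in 7.02%. Of the 3 windows inside annotated genes, which are not printed, the second start of Vegfa held 1 match each to ACGTG and GCGTG, 1 Pgf window held 1 to GCGTG and the other Pgf window none. The windows of Vegfc and Angptl2 held no match. These matches describe the letters only.

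Vegfc, the main growth factor of lymphatic vessels, had 13.4, 11.3 and 15.1 FPKM in Pdgfra-cre libraries, against 15.8, 10.5 and 8.75 FPKM in control libraries. The 3 Pdgfra-cre values fell inside the control range, which had both the highest and the lowest library. Between genotypes Vegfc had a log2 fold change of 0.20 ± 0.23 (SE; 95% interval -0.31 to 0.71; limma adjusted p = 0.827). It was 0.42 when control library 8 was left out (limma adjusted p = 0.651), 0.03 for control library 43 (0.989) and 0.10 for Pdgfra-cre library 25 (0.919).

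Pgf, whose product binds VEGFR1 and is known from placenta and inflamed tissue, had 20.7, 15.4 and 23.2 FPKM in Pdgfra-cre libraries, against 28.5, 18.01 and 19.5 FPKM in control libraries. Control library 8 was again the highest, and Pdgfra-cre library 23 the lowest. The log2 fold change was -0.14 ± 0.21 (SE; 95% interval -0.62 to 0.34; limma adjusted p = 0.875). Its sign turned when either of those 2 libraries was left out (0.06 for control library 8, and 0.02 for Pdgfra-cre library 23).

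Summed over these 4 genes, the VEGF family gave 68.0, 68.6 and 65.0 FPKM in Pdgfra-cre libraries, against 68.0, 57.4 and 59.8 FPKM in control libraries. The difference of 5.49 FPKM had an exact two-sided permutation p of 0.2, where 0.1 is the smallest that 3 against 3 allows. It was 2.13 FPKM after rescaling to TPM (exact permutation p = 0.9), 8.62 when control library 8 was left out and 3.31 for control library 9. Vegfa made up 36.4%, 45.0% and 27.8% of it in Pdgfra-cre libraries, against 23.4%, 37.5% and 38.3% in control libraries (exact two-sided permutation p = 0.7). The sum in library 23 was near that of library 13, although Vegfa was highest and Pgf lowest there.

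Angpt1, the TIE2 agonist, had the widest spread of the 7 genes tested, with a residual SD at the 92.7th percentile of all genes. It had 1.79, 7.20 and 3.14 FPKM in Pdgfra-cre libraries, against 5.04, 4.43 and 5.27 FPKM in control libraries. The controls lay close together, with a coefficient of variation of 8.84%, while Pdgfra-cre libraries 13 and 25 lay below all of them and library 23 above all of them. The log2 fold change was -0.37 ± 0.36 (SE; 95% interval -1.18 to 0.43; limma adjusted p = 0.783). Without Pdgfra-cre library 23 it was -0.80 (limma adjusted p = 0.380), and without Pdgfra-cre library 13 it was -0.02 (limma adjusted p = 0.992). About 67 fragments lay behind the value of library 13 and about 273 behind that of library 23. The annotation places the antisense gene Gm17473 over 737 exonic bases of Angpt1, and in a library without strand their reads cannot be told apart.

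Angpt2, the context-dependent antagonist that endothelial cells release, was close to the floor of detection and was not tested with limma. It had 0.753 and 0.811 FPKM in Pdgfra-cre libraries 13 and 25 and was listed at 0 in library 23, against 0.437, 0.705 and 0.913 FPKM in control libraries. The groups overlapped (exact two-sided permutation p = 0.7; the smallest possible is 0.1). About 14 to 29 fragments lay behind each value above 0. Library 23 listed 81 genes at 0 that had at least 0.4 FPKM in each of the other 5 libraries, against 3 to 21 such genes in each other library. The ratio of Angpt1 to Angpt2 was 2.38 and 3.87 in Pdgfra-cre libraries 13 and 25, against 11.6, 6.29 and 5.77 in control libraries. It has no value in library 23, where Angpt1 was highest, and it was therefore not tested.

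Angptl2, an inflammatory mediator secreted by stromal and fat cells, was the most abundant of the 8 genes and had the lowest unadjusted p (0.0948). It had 107, 83.1 and 157 FPKM in Pdgfra-cre libraries, against 144, 136 and 159 FPKM in control libraries. Pdgfra-cre libraries 13 and 23 lay below every control, while library 25 lay within the control range. The log2 fold change was -0.38 ± 0.20 (SE; 95% interval -0.84 to 0.08; limma adjusted p = 0.560) and its p ranked 1932 of 11429. Without Pdgfra-cre library 25 it was -0.62 (limma adjusted p = 0.141), and without Pdgfra-cre library 23 it was -0.17 (limma adjusted p = 0.847). Smooth muscle markers had lower values in Pdgfra-cre, in 11 of 11 genes without overlap, against 8.29% of all genes tested. The summed FPKM of 11 such genes, led by Acta2, was 455, 198 and 499 in Pdgfra-cre libraries, against 830, 826 and 860 in control libraries. That of 10 pericyte markers, led by Pdgfrb, was 59.6 to 80.96 against 93.4 to 105. Of the 8 pericyte markers tested, 2 lay above 0 and 6 below, and 3 were lower without overlap. Rgs5 had a mean of 3.72 FPKM in Pdgfra-cre and 3.41 in control libraries, and Notch3 reached at most 0.199 FPKM. The part of these cells in the Angptl2 and Angpt1 values was not tested. The pericyte gene Higd1b was listed at 0 in 5 of 6 libraries.

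Angptl4, the lipoprotein lipase inhibitor induced by fatty acids and by hypoxia, had 124, 56.4 and 65.9 FPKM in Pdgfra-cre libraries, against 69.1, 102 and 60.3 FPKM in control libraries. Each group held 1 high library (Pdgfra-cre 13 and control 9) and 2 low ones. Between genotypes Angptl4 had a log2 fold change of 0.04 ± 0.29 (SE; 95% interval -0.61 to 0.69; limma adjusted p = 0.981), and the residual SD was at the 90.0th percentile of all genes tested. Its sign changed in 4 of 16 alternative settings, with values from -0.30 without Pdgfra-cre library 13 to 0.26 without Pdgfra-cre library 23.

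**Figure D2:**
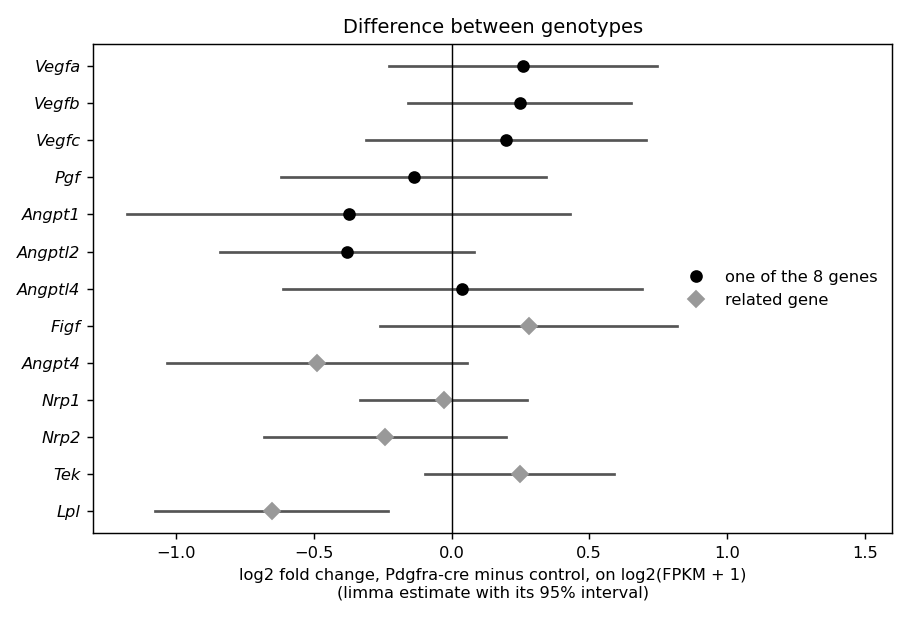
Log2 fold change between Pdgfra-cre and control libraries on the log2(FPKM + 1) scale (horizontal axis) for the 7 genes tested (black circles) and for 6 related genes (grey diamonds), with lines for unadjusted 95% intervals from limma. The intervals of all 7 genes cross 0, that of Angpt1 is the widest of the 7, and that of Lpl lies below 0 although its adjusted p was 0.243.

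Related ligands that share receptors with these genes were more abundant than several of them. Figf, listed in RefSeq as a synonym of Vegfd and a second ligand of VEGFR3, had 92.7, 53.1 and 69.5 FPKM in Pdgfra-cre libraries, against 60.9, 74.0 and 42.0 FPKM in control libraries. Its value was above those of Vegfa, Pgf, Vegfc and Vegfb in 6 of 6 libraries, and it was 3.84 to 7.05 times that of Vegfc. With Figf included, it made up 41.3% to 57.7% of the summed FPKM of 5 VEGF ligands. Angpt4, which in mouse also encodes a TIE2 ligand, had 31.2, 36.9 and 55.6 FPKM in Pdgfra-cre libraries, against 43.8, 75.1 and 54.9 FPKM in control libraries, and exceeded Angpt1 by 5.12 to 17.7 times in 6 of 6 libraries. Neither passed between genotypes, with limma adjusted p values of 0.749 for Figf (log2 fold change 0.28 ± 0.24, SE) and 0.517 for Angpt4 (-0.49 ± 0.24, SE). Of the remaining angiopoietin-like genes in the tables, Angptl7 varied most, from 4.95 to 42.5 FPKM (limma adjusted p = 0.543). The genes Angptl1, Angptl6 and Gm6484 (a RefSeq synonym of Angptl8) lay between 0.761 and 12.7 FPKM.

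The receptors divided into expressed and nearly absent ones. The signalling receptors of the VEGF family were near 0, with 0.0798 to 0.518 FPKM for Kdr (VEGFR2), 0.0870 to 0.856 for Flt1 (VEGFR1) and 0 to 0.0179 for Flt4 (VEGFR3) over the 6 libraries. The coreceptors were expressed, Nrp1 at 57.6 ± 5.996 FPKM in Pdgfra-cre and 58.8 ± 6.85 in control libraries (SD, n = 3 each), and Nrp2 at 9.72 ± 1.37 and 11.7 ± 2.32. Tek, which encodes the angiopoietin receptor TIE2 and is used as an endothelial marker, was expressed too. It had 39.3, 32.3 and 41.5 FPKM in Pdgfra-cre libraries, against 32.9, 27.1 and 34.8 FPKM in control libraries, with about 887 to 1725 fragments behind each value. The related receptor gene Tie1 had 0.171 to 0.193 FPKM in control libraries and was listed at 0 in Pdgfra-cre libraries. Of the other endothelial markers, Cdh5 was listed at 0 in all 6 libraries. Emcn reached at most 0.744 FPKM, Vwf 0.294, Cldn5 0.332, Erg 0.392 and Egfl7 2.07 in any library. By contrast, Eng had 23.1 to 30.6 FPKM and Plvap 2.11 to 4.96. Esam had 5.55, 4.51 and 6.29 FPKM in Pdgfra-cre libraries, against 9.38, 9.09 and 12.9 FPKM in control libraries (limma adjusted p = 0.199). It was the only 1 of the 4 tested endothelial markers without overlap, against 16.4% of all genes tested. The summed FPKM of 14 endothelial markers was 72.7 to 78.8 in Pdgfra-cre and 68.6 to 79.2 in control libraries, and most of it came from Tek itself and Eng. The part of endothelial cells in the Tek value was not tested. Tek exceeded Angpt1 by 4.49 to 21.9 times in these libraries. Of the 7 receptor and coreceptor genes 3 were tested and 0 passed (limma adjusted p = 0.968 for Nrp1, 0.727 for Nrp2 and 0.618 for Tek).

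**Figure D3:**
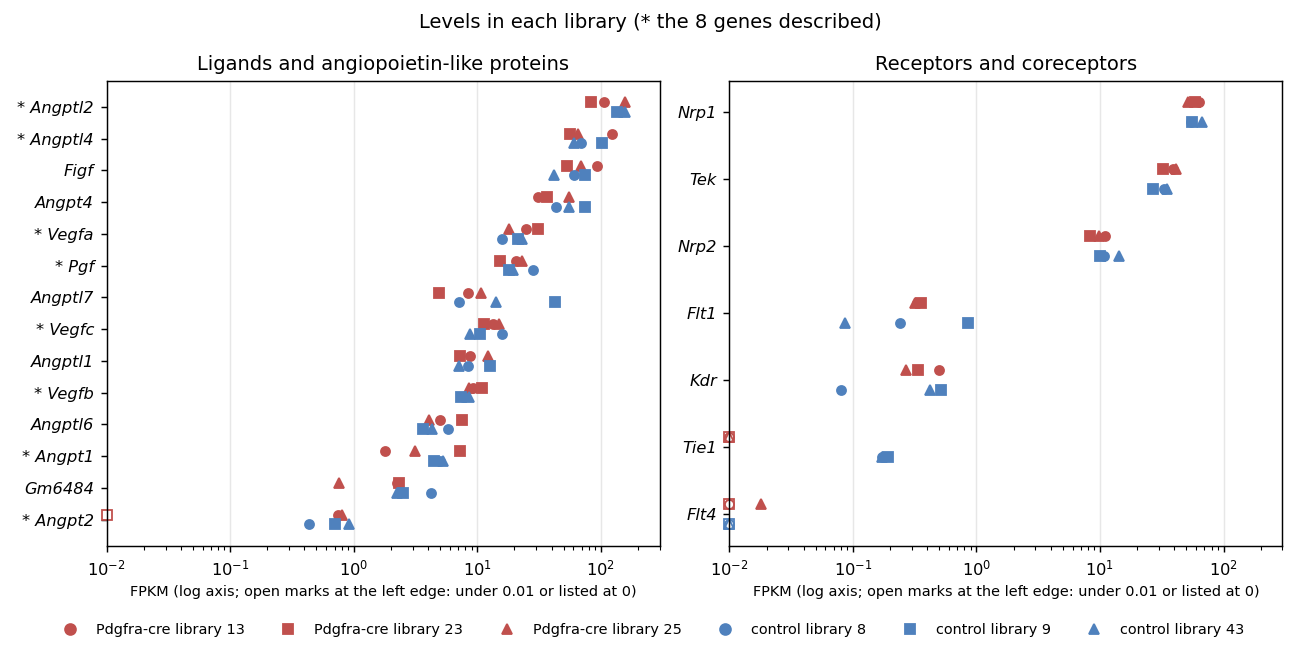
FPKM (horizontal log axis) of 14 ligand and angiopoietin-like genes (left) and of 7 receptor and coreceptor genes (right), with 1 mark per library, red for Pdgfra-cre and blue for control, and open marks at the left edge for values listed at 0. Figf and Angpt4 lie above Vegfa, and on the right Nrp1, Tek and Nrp2 lie above 8 FPKM while the VEGF receptors Flt1, Kdr and Flt4 lie under 1 FPKM.

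Genes that sense and answer low oxygen, for which Vegfa and Angptl4 are textbook targets, were compared next. Of the 8 tested regulators of hypoxia-inducible factor (HIF), 0 passed. They were the subunit genes Hif1a, Epas1 and Arnt, and Vhl, Egln1, Egln2, Egln3 and Hif1an, whose products restrain HIF. Egln3 also counts among the HIF target genes below. All 8 had a log2 fold change below 0, also under each of 3 other scalings, with a median of -0.23 against 0.001 over all genes tested. Leaving out control library 8, control library 9 or Pdgfra-cre library 13 left 7 of 8 below 0. Since the 8 hold both subunit and restraining genes, their shared sign gives no direction of HIF activity. Hif1a, the oxygen-regulated subunit, had 40.2 ± 5.78 FPKM in Pdgfra-cre and 44.5 ± 12.1 in control libraries, and its partner Arnt had 25.5 ± 1.596 and 27.6 ± 1.04 (SD, n = 3 each). Epas1, which encodes HIF-2 alpha, was the only 1 of the 8 without overlap, a share near the 16.4% of all genes tested. It had 9.21, 9.14 and 8.52 FPKM in Pdgfra-cre libraries, against 11.3, 10.2 and 12.9 FPKM in control libraries (limma adjusted p = 0.555). The prolyl hydroxylase gene Egln2 had 23.2 ± 4.04 and 28.4 ± 4.70 FPKM.

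Of 27 tested HIF target genes 0 passed, and 11 lay above 0 and 16 below, with a median of -0.06 (7 and 20 after rescaling to TPM). Pdgfra-cre and control values were apart for 5 of the 27, 2 higher and 3 lower in Pdgfra-cre, a share near the 16.4% of all genes tested. The monocarboxylate transporter gene Slc16a3 had 3.22 ± 1.18 FPKM in Pdgfra-cre and 6.46 ± 1.08 in control libraries, and Ndrg1, a hypoxia-induced gene, had 51.8 ± 6.46 and 36.6 ± 5.48 (SD, n = 3 each; limma adjusted p = 0.254 and 0.262). The glycolytic genes Ldha (682 ± 30.8 and 791 ± 104 FPKM) and Aldoa (478 ± 10.03 and 468 ± 17.2) were the most abundant. These targets lay on both sides of 0.

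Lipid genes around Angptl4 were compared in the same way. Of 14 tested regulators and targets of the PPAR receptors, which include Angptl4 itself, 0 passed, and 9 lay above 0 and 5 below with a median of 0.09 (6 and 8 after rescaling to TPM, with a median of -0.01). Acaa2, an enzyme of fatty acid oxidation, was the most abundant, at 126 ± 18.5 FPKM in Pdgfra-cre and 119 ± 26.2 in control libraries (SD, n = 3 each). The fatty acid transporter gene Cd36 had 0.921 ± 0.633 FPKM in Pdgfra-cre and 7.87 ± 9.13 in control libraries (SD, n = 3 each; limma adjusted p = 0.346). Lpl, the lipase that ANGPTL4 inhibits, had 94.6, 70.3 and 122 FPKM in Pdgfra-cre libraries, against 164, 133 and 146 FPKM in control libraries. All 3 Pdgfra-cre values lay below all 3 control values. The limma adjusted p was 0.243, at -0.65 ± 0.19 (SE) on the log2 scale. Lmf1, which encodes the lipase maturation factor, had 19.5 ± 1.67 and 22.4 ± 1.92 FPKM (limma adjusted p = 0.715).

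Genes listed for VEGF processing and matrix storage were mostly expressed, with 15 of 16 tested and 0 passing. Of these 8 lay above 0 and 7 below, with a median of 0.02 (5 and 10 after rescaling to TPM, with a median of -0.04, and from -0.18 to 0.12 with 1 library left out). Furin, a proprotein convertase that cleaves VEGF-C, had 4.77 ± 1.61 FPKM in Pdgfra-cre and 2.42 ± 0.499 in control libraries, and Svep1, a large matrix protein that binds angiopoietins, had 72.3 ± 7.07 and 88.7 ± 4.40 (SD, n = 3 each; limma adjusted p = 0.344 and 0.388). Mmp2, a gelatinase, had 763 ± 144 and 956 ± 85.5 FPKM, and the protease gene Ctsd 468 ± 18.6 and 475 ± 38.7.

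Among 19 tested genes for other angiogenic ligands, 0 passed, with 8 above 0 and 11 below and a median of -0.02 (6 and 13 after rescaling to TPM, and a median of 0.007 without control library 8). The epidermal growth factor family ligand Ereg had 61.9, 97.0 and 64.7 FPKM in Pdgfra-cre libraries, against 157, 118 and 160 FPKM in control libraries. Hgf, the hepatocyte growth factor, had 36.6, 43.4 and 39.2 FPKM in Pdgfra-cre libraries, against 93.4, 65.4 and 60.0 FPKM in control libraries. Pdgfra-cre and control values were apart for 7 of the 19 genes, against 16.4% of all genes tested. Of these, Ereg, Hgf and Ctgf were lower in Pdgfra-cre, and Fgf1, Sema3c, Slit2 and Ptn were higher. Ptn, which encodes the growth factor pleiotrophin, had 12.6, 22.1 and 14.3 FPKM in Pdgfra-cre libraries, against 8.81, 7.87 and 4.42 FPKM in control libraries (log2 fold change 1.119 ± 0.28, SE; limma adjusted p = 0.198). Ereg and Hgf were named because they had the 2 lowest unadjusted p of this list. Ptn and the others of the 7 were named after their values were seen. All 7 were thus picked by values of this same comparison. The limma adjusted p was 0.156 for Ereg (log2 fold change -0.97 ± 0.19, SE) and 0.160 for Hgf (-0.84 ± 0.17, SE). The matricellular gene Cyr61 (1772 ± 200 and 1797 ± 254 FPKM in Pdgfra-cre and control libraries) and the chemokine gene Cxcl12 (1047 ± 298 and 1282 ± 54.9) were the most abundant.

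Of 19 tested genes in a list of angiogenesis inhibitors 0 passed, with 7 above 0 and 12 below and a median of -0.12. Col18a1, the collagen from which endostatin is cut, had 81.7, 56.8 and 135 FPKM in Pdgfra-cre libraries, against 218, 189 and 189 FPKM in control libraries (log2 fold change -1.20 ± 0.26, SE; limma adjusted p = 0.169). It was the only gene of the list to pass in any run with 1 library left out, namely without Pdgfra-cre library 25. The interferon-induced chemokine gene Cxcl9 had 6.71, 31.97 and 2.84 FPKM in Pdgfra-cre libraries, against 1.36, 1.79 and 1.25 FPKM in control libraries (limma adjusted p = 0.273). Sparc (2353 ± 452 and 2392 ± 441 FPKM in Pdgfra-cre and control libraries) and Pcolce (828 ± 36.6 and 727 ± 99.1) were the most abundant. Pcolce was in the list as fixed, although it encodes a factor of collagen processing. The list median was 0.005 without Pdgfra-cre library 23 and 0.03 without control library 9.

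**Figure D4:**
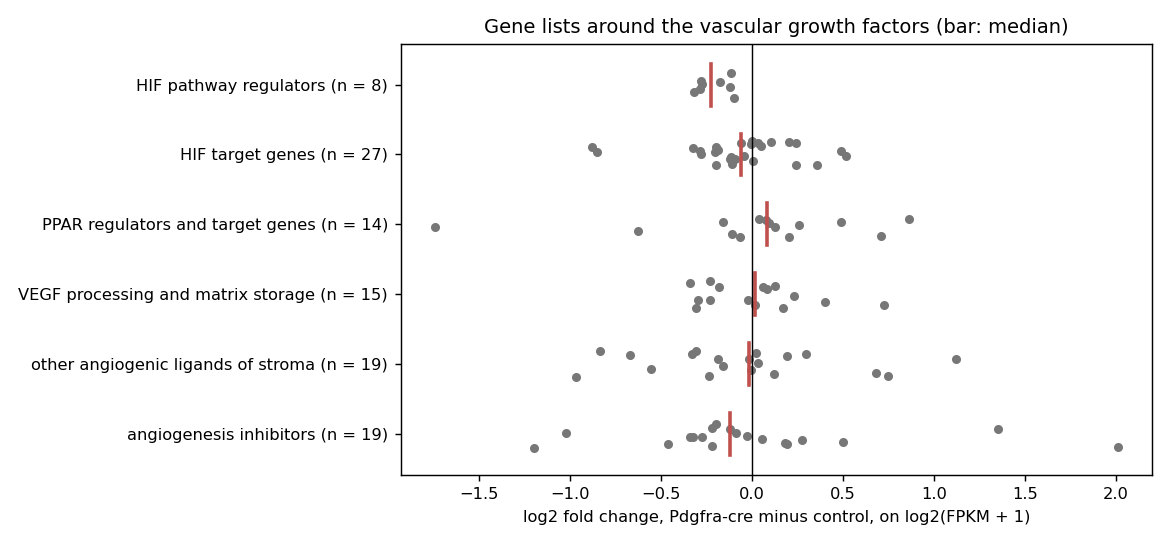
Log2 fold change between Pdgfra-cre and control libraries (horizontal axis) of each tested gene (grey points) in 6 gene lists around the vascular growth factors, with a red bar at the median of each list. Medians lie between -0.23 for the HIF pathway regulators and 0.09 for the PPAR list, and no single gene shown passed the test over all genes.

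To place the pattern of each gene over the 6 libraries, its log2(FPKM + 1) values were centred on their mean and set against those of every tested gene with a mean of at least 5 FPKM. Likeness was the largest difference in any library, in log2 units. Vegfb was nearest to Bcl7c (0.05) and to the RNA-decay gene Zfp36 (0.06), and Angptl2 to Pygb (0.06) and Arhgef25 (0.07). Pgf was nearest to Atg12 (0.11) and Selo (0.14), Vegfc to Cdc5l (0.14) and Chrdl1 (0.15), and Vegfa to Sergef (0.14) and Abi1 (0.16). Angpt1 was nearest to Tmem203 (0.16) and Pggt1b (0.23), and Angptl4 to Eef1e1 and Arsi (0.22 each). The median over all genes compared was 0.44 for Vegfb, the lowest, and 0.96 for Angpt1, the highest. With about 7880 genes set against 6 values, close neighbours are found for any pattern, and these are a description of the 6 libraries only. None of the 14 neighbours was another of the vascular genes.

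By position, the 8 genes lie on 6 chromosomes of mm10 in the GENCODE M21 annotation. Vegfa (46016993 to 46032369) and Angptl4 (33773750 to 33781830) are on chromosome 17, and Vegfc (54077606 to 54187096) and Angpt2 (18690263 to 18741562) on chromosome 8. Vegfb is on chromosome 19 (6982473 to 6987651), Pgf on 12 (85166635 to 85177790), Angpt1 on 15 (42424723 to 42676977) and Angptl2 on 2 (33216069 to 33247717). Angpt2 and Angptl2 lie within the spans of Mcph1 and Ralgps1 on the opposite strand, with 0 shared exonic bases. Of the pair on chromosome 17, Vegfa was highest in Pdgfra-cre library 23, where Angptl4 was lowest.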

How the data were processed

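Total RNA of sorted colonic stromal cells had been made into full-length cDNA with SMART-Seq HT and into libraries with Nextera XT, per the labels' protocols. These kits do not mark strand. Per the submitters' processing notes, TopHat2 2.1.1, Bowtie2 2.2.8, SAMtools 0.1.18 and Cuffdiff 2.2.1 were used with mm10. The deposited unit is FPKM, per the file headers, 1 table per library. Options, annotation release and read numbers are not given in the sources used here. The depth was read from the most frequent low values, within a preset range, of genes with 1 transcript, and it covers counting only. It used annotated transcript lengths, and Cuffdiff's effective lengths make it approximate. Any scaling between libraries is not known, so the fragment numbers given are approximate too.

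From these values, genes with at least 1 FPKM in at least 3 of 6 libraries were tested in R 4.3.3 with limma 3.58.1 (variance trend, pseudocount 1) on log2(FPKM + 1), which understates changes of low genes. The procedure was tested on simulated data. Single values were compared with exact permutation tests. The genes, the lists and the rule for named genes (the most abundant 2 and the 2 lowest p of each list, all receptors, and the nearest 2 patterns) were chosen with earlier results of these data known. Alternatives were pseudocounts 0.1 and 5, no filter, a filter at 5 FPKM, median-of-ratios scaling, quantile normalization, TPM, no trend, a robust prior, array weights and leaving out each library. Libraries came from different mice and share no replicate number. Names not in the tables as written were Vegfd, Angptl8, Isthmin1, Ly6g and Muc16.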

Additional observations from a re-analysis of the deposited data

How the results depend on the processing

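With all 6 libraries kept, 0 genes passed under each of the 10 alternatives, as in the values reported. Leaving out 1 library gave 0 to 33 genes: 33 without Pdgfra-cre library 25, 3 without Pdgfra-cre library 13 and 2 without control library 43, none of them 1 of the vascular genes. The cause was not tested. Of 112 values of the 7 tested genes under the alternatives, 0 passed and 6 changed sign. For Pgf, which ranged from -0.26 to 0.06 with 1 library left out, the sign changed without control library 8 (0.057) and, at 0.02, without Pdgfra-cre library 23. For Angptl4 they were -0.058 after rescaling to TPM and, with 1 library left out, values down to -0.30, while the highest such value was 0.26. The share of Vegfa in the VEGF sum, 3.32 percentage points higher in Pdgfra-cre, ranged from -1.50 without control library 8 to 7.64 without Pdgfra-cre library 25, and was -0.98 without Pdgfra-cre library 23. The Angpt2 difference of -0.163 FPKM ranged from -0.308 without Pdgfra-cre library 25 to 0.0974 without Pdgfra-cre library 23. The ratio of Angpt1 to Angpt2 had no test, since 1 library lists Angpt2 at 0. Rescaling to TPM moved the median of all genes by -0.09. No paired analysis was possible because the groups share no replicate number. At this depth and n the 95% intervals of Vegfa, Vegfb and Vegfc reach up to 0.74, 0.65 and 0.71 log2 units.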
